A study of Mus musculus with 24 samples.

Results

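The enzymes that activate ubiquitin and its relatives and pass them on were taken as all genes whose symbol in the array annotation starts with Ube2 or is Uba followed by a digit. The rule found 37 genes on 64 probes, among 19057 genes on the array. Of these, 3 carry a Uba symbol (Uba3, Uba6 and Uba7) and 34 a Ube2 symbol. A gene was treated as measured when a probe lay above background, at a detection p under 0.05, on at least 6 of 24 arrays. By that standard 30 of the 37 were measured, among 10759 measured genes, and 22 of the 30 were detected on all 24 arrays. The other 7, Ube2a, Ube2c, Ube2d1, Ube2d-ps, Ube2r2, Ube2v2 and Ube2w, were detected on at most 3 arrays, and 4 of them on none.

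Mouse spermatids were measured on Illumina bead arrays at an age of 7 weeks, in 4 groups of 6 arrays. RS_wt and CS_wt were wild-type round and condensing spermatids. RS_mut and CS_mut were the same stages with a double knockdown of Cbp and p300 in post-meiotic cells. The construct behind the knockdown and its promoter are not given in the labels, nor whether the 6 samples of a group came from separate animals, so the p-values rest on a spread between samples that may be technical.

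Ubiquitin is a small protein that marks other proteins for degradation or for changed function. An activating enzyme (E1) charges it with ATP, a conjugating enzyme (E2) carries it, and a ligase (E3) places it on a substrate, while the E2 often decides which linkage a chain has. In spermatids the pathway is known for the marking of histones before they are replaced and for the clearing of proteins and organelles as the cell condenses.

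Arrays detected 34.6% to 40.7% of 45281 probes, and the main axis of variation, with 71.5% of the variance, parted the stages. Round replicates RS_wt3, RS_mut8 and RS_mut10 stood apart from the other arrays of their groups. On RS_mut10, 14 of 30 members lay below and 6 above the range of the group's 4 other arrays, where 35.8% and 31.8% of all genes did. RS_wt3 had 11 members below and 8 above (32.3% and 33.0% of all genes), and RS_mut8 had 8 below and 10 above (30.4% and 36.3%). Crebbp and Ep300 did not differ detectably between the genotypes, with 95% intervals for the knockdown level of 72.5% to 132% of wild type. Their values therefore do not check the genotype labels. Defining spermatid genes (Acrv1, Spaca1, Tnp2, Prm1, Oaz3 and Odf1) were detected on all 24 arrays, while Tssk1 of the round spermatid list was never detected. In wild type, round spermatid markers fell in 6 of 9 cases and rose in 3 (median log2 change -0.84). Condensing spermatid markers rose in 5 of 10 cases and fell in 1, with a small median of 0.18. Markers of somatic and blood cells were higher in the condensing samples, and those of spermatocytes were lower. Sertoli markers rose in 9 of 10 cases in wild type, with 0 falls (median log2 change 2.98), and their summed linear level went from 1066 to 1636 in RS_wt to 12488 to 15433 in CS_wt, although Amh, Gata1 and Ctsl were never detected. For erythroid markers 5 of 6 rose, with sums of 341 to 1333 and 50292 to 60804 and Epb42 never detected, and for leukocyte markers 11 of 12 rose, with sums of 4917 to 7839 and 10054 to 13502 and Ptprc never detected. Stromal markers rose in 8 of 9 cases (Tagln and Col3a1 never detected), endothelial markers in 5 of 7, and Leydig markers in 2 of 3 (Hsd3b1, Star and Hsd17b3 never detected). Spermatocyte markers fell in 6 of 9 cases and rose in 2 (median -0.75), with sums of 18807 to 25450 in RS_wt and 11774 to 14105 in CS_wt, and Sycp3, Hormad1 and Dmc1 were never detected. Their part in the stage differences of the enzymes was not tested. In these bulk samples fewer cells of a type and less RNA per cell cannot be told apart.

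The comparison of stages asks how the transcripts of these enzymes change while spermatids condense. Most members differed between the stages in wild type, as did most of all measured genes, and the members did so in both directions. Most members grouped here as enzymes of degradation chains rose, among them Ube2g2, Ube2g1 and Ube2k. The large hybrid enzyme Ube2o, the Rad6 enzyme Ube2b and Ube2q1 fell. The grouping was made with earlier results of these data known. It leaves out Ube2s, which also extends chains and was lower in condensing wild-type samples. In all, 13 of 30 measured members rose and 10 fell at a limma adjusted p under 0.05, where 30.3% of all genes rose and 33.8% fell. The median log2 change was 0.20 over the members and -0.03 over all genes. These counts are those of the members that passed the detection filter. Ube2l6 did so through condensing arrays alone. Ube2z would not have done so on condensing arrays alone, nor Uba7 and Ube2ql1 on round arrays alone. The ranges of the stages did not overlap for 13 members, against 43.2% of all genes. Changes were modest, and Ube2g2 was the only member past 2-fold in wild type. Arrays were brought to common quantiles, and the split depends on that choice: scaling to the median of all probes gave 6 rises and 14 falls among the members and moved the median of all genes to -0.31, with 28.3% of its calls being rises in place of 47.3%. Scaling to the median of the detected probes, chosen after seeing the data, gave 14 rises and 9 falls, a median of 0.13 over all genes and 56.1% rises.

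Under all 12 other processing settings Ube2e2, Ube2g1, Ube2g2, Ube2k and Ube2l3 rose in both genotypes. In the same way Ube2b, Ube2o, Ube2q1 and Ube2u fell in both, and Ube2dnl2 and Ube2v1 fell in wild type.

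**Figure D1:**
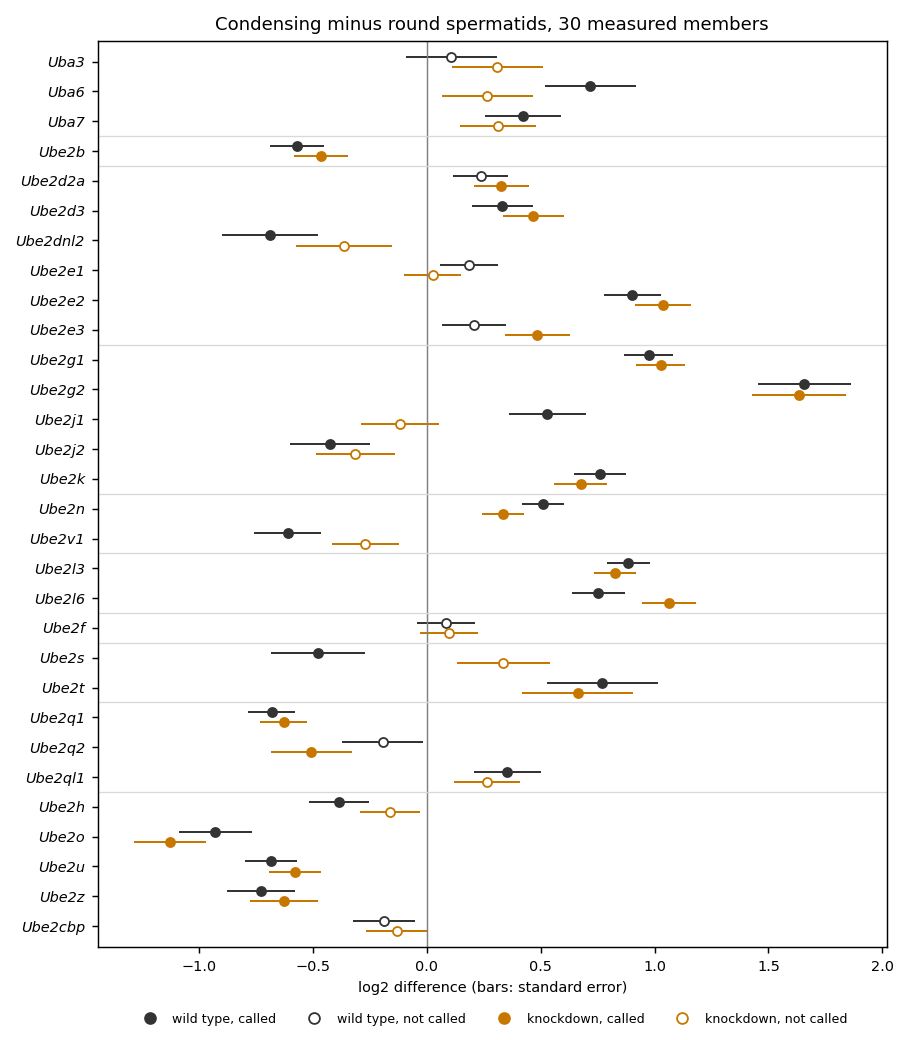
Log2 difference between condensing and round spermatids (horizontal axis; positive is higher in condensing) for the 30 measured members, in wild type (dark) and knockdown (orange), with standard errors; filled points passed the limma test at an adjusted p under 0.05, and grey lines part the roles. Ube2g2 lies farthest to the right, at 1.66 in wild type, and Ube2o farthest to the left, at -1.13 in the knockdown.

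Among members grouped as enzymes of degradation chains, 4 of 5 measured rose in wild type and 1 fell. Over all genes 30.3% rose and 33.8% fell. With so few members, grouped with earlier results known, the count describes these genes only. Ube2g2, a conjugating enzyme of the endoplasmic reticulum that serves the disposal of misfolded proteins, had log2 levels from 8.64 to 9.94 (median 9.58) in RS_wt and from 11.06 to 11.24 (median 11.17) in CS_wt. Every condensing array lay above every round array, and the lowest round wild-type array was RS_wt3. The rise was 3.15-fold (log2 1.66 ± 0.20, SE, n = 6 per group, adjusted p = 5.80e-08) in wild type and 3.10-fold in the knockdown (1.63 ± 0.20). The mean raw intensity of its probe also went up, from 1063 to 2098, so this rise was there before any scaling.

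Ube2k, which extends chains linked through lysine 48, ran from 12.73 to 13.24 (median 12.96) in RS_wt and from 13.58 to 13.86 (median 13.74) in CS_wt. The stages were fully apart here as well. It rose 1.69-fold (log2 0.76 ± 0.12, adjusted p = 1.77e-06) in wild type and 1.60-fold in the knockdown, and its raw intensity went from 8393 to 14792. Of its 2 other probes, ILMN_1258782 gave 0.86 and the dimmer ILMN_2655066 gave 1.73, so the direction was shared and the size was not. Ube2g1, a relative of Ube2g2, ran from 7.12 to 7.50 (median 7.26) in RS_wt and from 8.08 to 8.40 (median 8.28) in CS_wt, again with no overlap. It rose 1.96-fold in wild type (0.97 ± 0.11, adjusted p = 7.18e-09) and 2.04-fold in the knockdown (adjusted p = 2.76e-09). Its other probes gave 0.41 and 0.03 in wild type, so 1 of 3 probes did not show the rise. Those probes gave 0.28 and 0.30 in the knockdown (limma adjusted p = 0.0532 and 0.0698 over 19086 probes). Neither was called there, so the knockdown call and its size rest on the brightest probe.

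Ube2j1 and Ube2j2 are membrane-bound enzymes of endoplasmic reticulum degradation, and in the mouse Ube2j1 is known to be needed for sperm formation. Ube2j1 was dim, with 5.03 to 5.41 (median 5.30) in RS_wt and 5.48 to 6.27 (median 5.70) in CS_wt. These wild-type ranges did not overlap, and the probe was detected on 5 round and 6 condensing arrays. It rose 1.44-fold in wild type (0.53 ± 0.17, adjusted p = 0.00781), a call lost with scaling to the median of all probes (0.15). In the knockdown the stage difference was -0.12 ± 0.17 (adjusted p = 0.563). Ube2j2 fell in wild type, by 0.43 ± 0.17 on the log2 scale (adjusted p = 0.0341), and that call did not hold in 7 of 12 runs with an array left out, with consecutive arrays as a random block, with scaling to the median of the detected probes or with no detection filter.

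**Figure D2:**
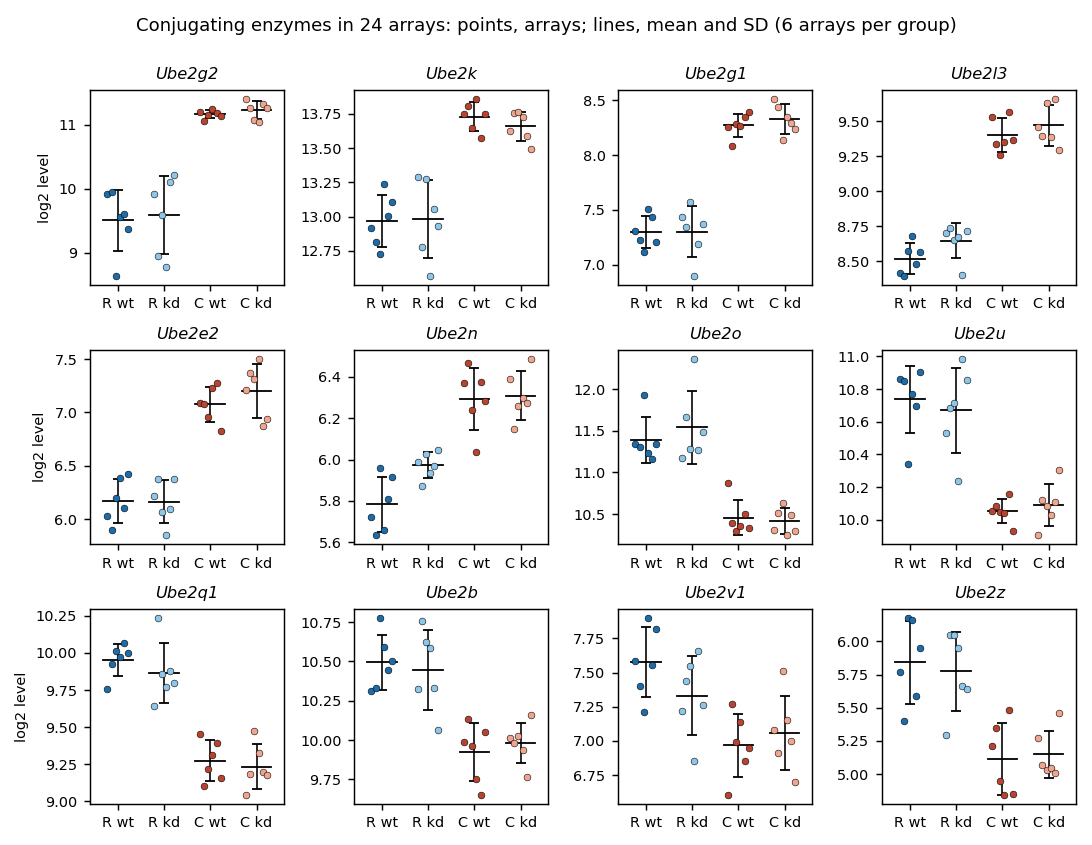
Log2 levels (vertical axis) of 12 conjugating enzymes in each of 24 arrays, grouped as round wild type (R wt), round knockdown (R kd), condensing wild type (C wt) and condensing knockdown (C kd); each point is an array, and lines give the mean and SD of 6 arrays. In reading order, the first 6 genes are higher in condensing samples and the last 6 lower there, with Ube2g2 at 9.51 in RS_wt and 11.16 in CS_wt.

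Of the Ube2d and Ube2e classes, broadly acting enzymes that work with many ligases, 6 of 8 members were measured. In wild type 2 rose and 1 fell, where 30.3% of all genes rose and 33.8% fell. Ube2e2 ran from 5.90 to 6.43 (median 6.15) in RS_wt and from 6.83 to 7.27 (median 7.08) in CS_wt, with no array in common between the ranges. It rose 1.87-fold in wild type (0.90 ± 0.12, adjusted p = 3.76e-07) and 2.05-fold in the knockdown (1.04 ± 0.12, adjusted p = 3.39e-08). Without background correction the wild-type difference was 0.40, the lowest over the other settings. Ube2d3 rose by 0.33 ± 0.13 (adjusted p = 0.0333), a call that did not hold in 7 of 12 runs with an array left out, without the 3 arrays that stand apart, and with scaling to the median of all probes, where it was -0.10. In the knockdown Ube2d3 rose by 0.47 (adjusted p = 0.00355), Ube2d2a by 0.33 (adjusted p = 0.0206) and Ube2e3 by 0.49 (adjusted p = 0.00367). Each of these 3 calls was lost with scaling to the median of all probes, and that of Ube2d2a also with scaling to the median of the detected probes. In wild type Ube2d2a was at 0.24 (adjusted p = 0.0911), Ube2e3 at 0.21 (adjusted p = 0.201) and Ube2e1 at 0.19 (adjusted p = 0.205), none of them called. Scaling to the median of all probes put Ube2d2a at -0.34 in wild type with an adjusted p of 0.0371, so its direction depends on the scaling.

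Ube2dnl2, an X-linked gene with a Ube2d-like product, ran from 7.87 to 9.28 (median 8.82) in RS_wt and from 7.80 to 8.33 (median 8.09) in CS_wt. The ranges overlapped through the lowest round array. It fell 1.61-fold in wild type (-0.69 ± 0.21, adjusted p = 0.00530). The knockdown difference was -0.36 ± 0.21 (adjusted p = 0.133).

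Of the Ube2l enzymes, Ube2l3 rose and Ube2l6 has only a bound. Ube2l3, which serves HECT and RBR ligases, ran from 8.39 to 8.68 (median 8.52) in RS_wt and from 9.26 to 9.57 (median 9.36) in CS_wt. The stages were far apart relative to the spread within each. It rose 1.85-fold in wild type (0.89 ± 0.09, adjusted p = 3.64e-09) and 1.77-fold in the knockdown, and a second probe gave 0.82 and 0.92. Over the other settings its wild-type difference ran from 0.30 to 0.90, with the raw intensity moving from 569 to 638. Ube2l6, the conjugating enzyme of the ubiquitin-like protein Isg15, was detected on 0 of 12 round arrays and on 5 of 6 arrays in each condensing group. With the floor of the round arrays in place of their own signal it was at least 1.23-fold higher in condensing wild-type and at least 1.40-fold higher in condensing knockdown samples. It met the detection filter through its condensing arrays alone, so its stage test is no independent evidence and no p is given. Its measured means were 4.61 in RS_wt and 5.36 in CS_wt, and 4.47 in RS_mut and 5.53 in CS_mut. The leukocyte and erythroid marker sums given above were higher in the same samples, and their part in the level of Ube2l6 was not tested.

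Of the 3 activating enzymes found by the rule, Uba6 rose in wild type, Uba7 lay near background and Uba3 did not pass the test. The main activating enzyme of ubiquitin is not among the members, so these genes do not cover the activating step. Uba6, which activates ubiquitin and the related protein Fat10, ran from 7.87 to 8.73 (median 8.26) in RS_wt and from 8.87 to 9.14 (median 9.04) in CS_wt. No round wild-type array reached the condensing range. It rose 1.65-fold (0.72 ± 0.20, adjusted p = 0.00257), but its raw intensity was 510 in RS_wt and 507 in CS_wt, and the call was lost with scaling to the median of all probes (0.11). In the knockdown the difference was 0.27 ± 0.20 (adjusted p = 0.253), and RS_mut arrays were spread from 7.94 to 9.48. Uba7, which activates Isg15, was near background, detected on 1 round and 3 condensing wild-type arrays. Its levels ran from 4.60 to 5.28 (median 4.68) in RS_wt and from 4.75 to 5.76 (median 5.22) in CS_wt, so the ranges overlapped. Its measured difference was 0.42 ± 0.17. The probe was detected on 6 arrays in all, the least the filter allows, and on 0 round knockdown arrays. Round arrays alone would not have met the filter, so its stage test is no independent evidence and no p is given. Its call did not hold in 2 of the 8 runs with an array left out that still measured it. The call was also lost with scaling to the median of all probes and with no detection filter. Uba3, the catalytic subunit of the NEDD8 activating enzyme, ran from 4.85 to 5.62 (median 5.53) in RS_wt and from 4.93 to 6.21 (median 5.49) in CS_wt. The groups lay on top of each other, with a difference of 0.11 ± 0.20 (adjusted p = 0.658).

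**Figure D3:**
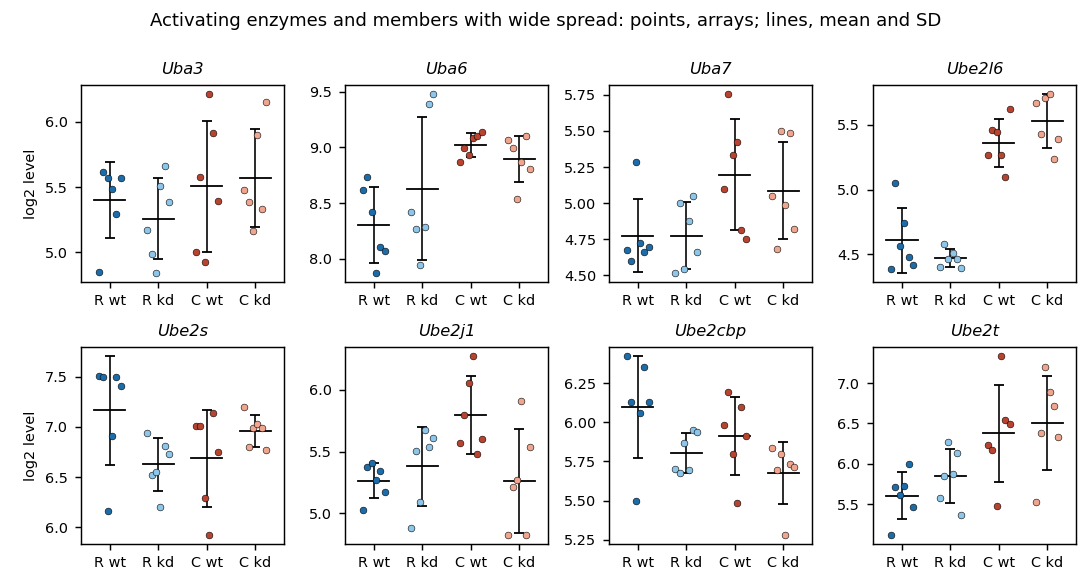
Log2 levels (vertical axis) of the 3 activating enzymes and of 5 conjugating enzymes or related genes with dim or widely spread values, by array and group as in the plot of 12 conjugating enzymes, with the mean and SD of 6 arrays. RS_wt3 is the highest round wild-type point of Uba7, at 5.28, and Uba6 ran from 7.94 to 9.48 in the RS_mut arrays.

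Ube2b, a mouse counterpart of yeast Rad6, ubiquitinates histones with its partner ligases and is known to be needed for male fertility in the mouse. Its levels ran from 10.31 to 10.78 (median 10.47) in RS_wt and from 9.65 to 10.13 (median 9.98) in CS_wt. Every condensing wild-type array lay below every round wild-type array. It fell 1.48-fold (-0.57 ± 0.12, adjusted p = 0.000114), and in the knockdown 1.38-fold (-0.46 ± 0.12, adjusted p = 0.00105). The mean raw intensity went from 1854 to 881. Its close relative Ube2a was not measured. Ube2h, the conjugating enzyme of a multi-subunit ligase with Maea, fell by 0.38 ± 0.13 in wild type (adjusted p = 0.0120), a call lost with scaling to the median of the detected probes (-0.13). In the knockdown Ube2h was at -0.16 ± 0.13 (adjusted p = 0.289).

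Ube2b and Ube2h were also the 2 members whose promoters hold the cAMP response element, the site of CREB and CREM factors, for which CBP and p300 act as coactivators. RefSeq promoters (build GRCm38.p6, 250 bases before to 50 after the start of a gene) were matched for 30 of the 37 members, on 39 promoters. The element TGACGTCA, which reads the same on both strands, was in 2 of the 39 and in 1.79% of 32851 promoters. Its shorter core TGACG, on either strand and including the cores within the full element, was in 9 of the 39 (23.1%), which belong to 8 members, and in 20.8% of all. A match describes the letters and says nothing of binding. The windows shown run from 120 bases before to 20 bases after the start, 5′ to 3′ on the strand of the gene, with the element and its core in capitals. They are those of both holders of the full element and, for contrast, of the members with the largest called rise and fall in wild type among those with a promoter in the table. The Ube2b window (chr11:52000767-52000906, minus strand) holds the element from base -1 and a core upstream of it. The Ube2h window (chr6:30304520-30304659, minus strand) holds it from base -24. Those of Ube2g1 (chr11:72607141-72607280, plus strand) and Ube2z (chr11:96065345-96065484, minus strand) hold no match.
Ube2b: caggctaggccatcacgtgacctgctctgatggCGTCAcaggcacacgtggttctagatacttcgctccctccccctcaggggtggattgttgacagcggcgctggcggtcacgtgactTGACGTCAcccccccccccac
Ube2h: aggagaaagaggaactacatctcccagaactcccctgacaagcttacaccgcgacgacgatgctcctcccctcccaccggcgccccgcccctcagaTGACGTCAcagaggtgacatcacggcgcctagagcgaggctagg
Ube2g1: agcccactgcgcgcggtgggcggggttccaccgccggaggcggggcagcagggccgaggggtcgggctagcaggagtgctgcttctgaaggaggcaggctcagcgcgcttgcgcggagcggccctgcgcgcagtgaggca
Ube2z: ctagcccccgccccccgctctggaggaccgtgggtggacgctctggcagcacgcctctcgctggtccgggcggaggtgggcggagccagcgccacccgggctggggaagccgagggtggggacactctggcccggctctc
Both holders of the element were lower in condensing wild-type samples and neither differed detectably with the knockdown. CG pairs were counted in the richest promoter of each gene. The 11 members with a promoter that rose had a median of 33.0 and the 9 that fell 30.0. The 5 not called had 27.0 and the 5 not measured 29.0, so the medians were similar whatever the call. All 27025 genes of the promoter table, whether measured on the arrays or not, had 8.0.

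Of the members grouped here as large and other enzymes, 4 of 5 measured fell in wild type and 3 in the knockdown, with 0 rises. Over all genes 33.8% fell in wild type and 32.4% in the knockdown. The group was drawn with earlier results of these data known, and Ube2z is among its falls. Ube2o, a large enzyme that acts as E2 and E3 together and is known for remodelling the proteins of maturing red cells, ran from 11.16 to 11.93 (median 11.32) in RS_wt and from 10.30 to 10.87 (median 10.37) in CS_wt. The stages did not overlap, and the highest array in each wild-type group, RS_wt3 and CS_wt13, lay away from its neighbours. It fell 1.90-fold in wild type (-0.93 ± 0.16, adjusted p = 1.11e-05) and 2.18-fold in the knockdown (-1.13 ± 0.16, adjusted p = 5.57e-07). Ube2u ran from 10.34 to 10.91 (median 10.81) in RS_wt and from 9.93 to 10.16 (median 10.05) in CS_wt, without overlap. It fell 1.61-fold (-0.68 ± 0.12, adjusted p = 7.50e-06), with a second probe at -0.77, and 1.49-fold in the knockdown. Ube2z, which takes ubiquitin from Uba6 rather than from the main activating enzyme, ran from 5.40 to 6.18 (median 5.86) in RS_wt and from 4.85 to 5.48 (median 5.08) in CS_wt. These ranges overlapped at their edges, and the probe was detected on all 6 round but only 3 condensing wild-type arrays. Its measured level was 1.66-fold lower in condensing samples of wild type (-0.73 ± 0.15) and 1.54-fold lower in those of the knockdown. The condensing levels lay near background. Ube2z would not have met the detection filter on its condensing arrays alone, so its stage test is no independent evidence and no p is given. Ube2cbp, which despite its symbol is a ligase-type protein named for binding an E2, was at -0.19 ± 0.14 (adjusted p = 0.235).

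Of the Ube2q class, Ube2q1 and Ube2q2 are enzymes with a long extension before the catalytic fold. Ube2q1 ran from 9.76 to 10.06 (median 9.98) in RS_wt and from 9.10 to 9.45 (median 9.27) in CS_wt. The stages did not overlap in either genotype. It fell 1.60-fold in wild type (-0.68 ± 0.10, adjusted p = 1.68e-06) and 1.55-fold in the knockdown, and its other probes gave -0.96 and -0.39. Ube2q2 was at -0.19 ± 0.18 in wild type (adjusted p = 0.352). In the knockdown it fell by 0.51 ± 0.18 (adjusted p = 0.0146), a call lost without the 3 arrays that stand apart. Ube2ql1 was at 0.35 ± 0.15 in wild type, on a probe detected on 2 round and 3 condensing arrays. Its round arrays of both genotypes alone would not have met the detection filter, so no p is given. Its call held in 3 of 11 other settings and not in 6 of 12 runs with an array left out.

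Ube2n and Ube2v1 form the pair that builds chains linked through lysine 63, and they went opposite ways in wild type. Ube2n, the catalytic partner, ran from 5.63 to 5.96 (median 5.77) in RS_wt and from 6.03 to 6.47 (median 6.32) in CS_wt. It rose 1.42-fold (0.51 ± 0.09, adjusted p = 2.32e-05) and in the knockdown 1.26-fold (adjusted p = 0.00246), with no overlap in either, but both calls were lost with scaling to the median of all probes (0.18 and 0.08). Ube2v1, the partner that orients the acceptor ubiquitin, ran from 7.21 to 7.90 (median 7.57) in RS_wt and from 6.60 to 7.27 (median 6.97) in CS_wt. The ranges met at their edges. It fell 1.53-fold (-0.61 ± 0.15, adjusted p = 0.000639), and in the knockdown the difference was -0.27 ± 0.15 (adjusted p = 0.110).

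Of the enzymes of cell division and DNA repair, Ube2t, which acts in the Fanconi anaemia pathway, ran from 5.12 to 5.99 (median 5.66) in RS_wt and from 5.47 to 7.34 (median 6.37) in CS_wt. The condensing arrays were widely spread and overlapped the round ones. It rose 1.70-fold (0.77 ± 0.24, adjusted p = 0.00710) in wild type and 1.58-fold in the knockdown (adjusted p = 0.0192), and both calls were lost with scaling to the median of all probes (0.28 and 0.26). Ube2s, which extends chains with the anaphase promoting complex, ran from 6.16 to 7.51 (median 7.45) in RS_wt and from 5.93 to 7.14 (median 6.88) in CS_wt. The groups overlapped over most of their range. It fell by 0.48 ± 0.21 (adjusted p = 0.0440), and that call too did not hold in 7 of 12 runs with an array left out, with consecutive arrays as a random block, with only the groups compared in the fit or with no detection filter. Ube2c, which starts such chains, was not measured.

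Ube2f, a conjugating enzyme of NEDD8, gave no common value. Its brightest probe, ILMN_2590350, ran from 10.14 to 11.10 (median 10.71) in RS_wt and from 10.57 to 11.03 (median 10.72) in CS_wt, with a difference of 0.08 ± 0.13 (adjusted p = 0.585). Probes ILMN_2835443 and ILMN_2614522 fell, by 0.93 and 0.71 on the log2 scale (adjusted p = 7.27e-08 and 6.70e-06 over 19086 probes), and ILMN_2590349 was at 0.27 (adjusted p = 0.0613). All 4 probes were detected on all 24 arrays. The pattern was the same in the knockdown, where those probes gave 0.10, -0.81, -0.80 and 0.21. Ube2q2 was also split, with -0.19 and 0.09 at its brighter probes and -0.97 at ILMN_2826027 (adjusted p = 0.000817). Where the probes lie on the transcripts was not analysed here. The other 5 members with several kept probes (Ube2g1, Ube2k, Ube2l3, Ube2q1 and Ube2u) had all of these on the same side of 0 in wild type. Ube2b, Ube2j2 and Ube2z had 3 probes each on the array, of which 1 met the detection filter. Likewise Uba6, Ube2d3, Ube2e3, Ube2l6 and Ube2n had 2 probes each, of which 1 met it.

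**Figure D4:**
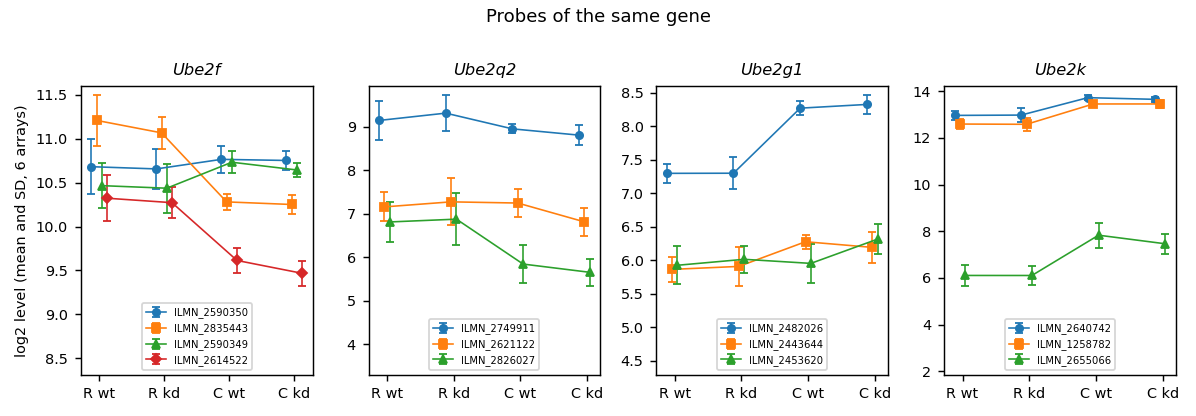
Mean log2 level and SD over 6 arrays (vertical axis) of each kept probe of Ube2f, Ube2q2, Ube2g1 and Ube2k in the 4 groups (R, round; C, condensing; wt, wild type; kd, knockdown), with lines joining the groups of a probe. For Ube2f, 2 probes fall between the stages (-0.93 and -0.71 in wild type) and 2 do not, while all 3 probes of Ube2k rise.

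In the knockdown, too, most members differed between the stages, as did most of all measured genes. There 11 members rose and 6 fell, where 30.5% of all genes rose and 32.4% fell, and the groups did not overlap for 9 members, against 40.8% of all genes. The median was 0.26 over the members and -0.01 over all genes, and scaling to the median of all probes gave 6 rises and 11 falls, with 32.4% of calls over all genes being rises in place of 48.5%. By gene, 9 members (Ube2l6 among them) rose in both genotypes and 5 (Ube2z among them) fell in both. Called in opposite directions were 0, and 4 (Uba3, Ube2cbp, Ube2e1 and Ube2f) were called in neither. The matching shares of all genes were not counted, so these numbers describe the members alone and set them apart from no other genes. Uba6, Uba7, Ube2j1 and Ube2ql1 rose in wild type with no call in the knockdown. Of these, the calls of Uba7 and Ube2ql1 are no independent evidence, because round arrays alone would not have met the detection filter. Ube2dnl2, Ube2h, Ube2j2, Ube2s and Ube2v1 fell in wild type with no call in the knockdown. Ube2d2a and Ube2e3 rose and Ube2q2 fell in the knockdown with no call in wild type. A call in 1 genotype alone does not show that the genotypes differ. The test of the difference itself called 0 of 30 members by limma, against 0% of all genes called higher and 0.0465% called lower. At an unadjusted p under 0.05 stood 2 members and 747 of all 10759 genes. The smallest p belonged to Ube2s at 0.81 ± 0.29 (adjusted p = 0.541) and Ube2j1 at -0.65 ± 0.24 (adjusted p = 0.572). Ube2l6 was next (adjusted p = 0.750), but its round levels are background, so no difference is given. The 95% interval of the difference spanned, at the median member, 0.40 log2 (1.32-fold) on each side, and it lay within 1.5-fold for 15 of 30 members. Ube2ql1 and Ube2z are among these 15 but lay near background in some groups, so their transcripts are not bounded.

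The comparison of genotypes within a stage asks whether these enzymes depend on Cbp and p300 after meiosis. No member was called in either stage. In round spermatids 0 of 30 passed, as did 0% of all genes in each direction. At an unadjusted p under 0.05 stood 3 members and 388 of all genes, no member had groups that did not overlap (0.186% of all genes), and the smallest adjusted p among the members was 0.999. In condensing spermatids 0 of 30 passed, against 0.26% of all genes called higher and 0.279% called lower. There 1 member and 948 of all genes had an unadjusted p under 0.05, and 0 members had groups that did not overlap, against 1.31% of all genes. The count of called members was 0 in both stages under each of 12 other settings and in 12 runs with an array left out.

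The values with the smallest p were these. Ube2s ran from 6.16 to 7.51 (median 7.45) in RS_wt and from 6.20 to 6.94 (median 6.64) in RS_mut, with RS_wt3 at the low end of wild type. Its difference was -0.54 ± 0.21 (limma adjusted p = 0.999). Ube2cbp was at -0.30 ± 0.14 and Ube2n at 0.19 ± 0.09 in round spermatids (adjusted p = 0.999 for both). In condensing spermatids Ube2j1 ran from 5.48 to 6.27 (median 5.70) in CS_wt and from 4.83 to 5.91 (median 5.24) in CS_mut. The groups overlapped, and the probe was detected on 6 and 4 arrays. Its difference was -0.53 ± 0.17 (limma adjusted p = 0.230), with Ube2cbp at -0.24 ± 0.14 (adjusted p = 0.675) and Ube2e3 at 0.22 ± 0.14 (adjusted p = 0.733).

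For members detected well above background, the intervals bound what could have been missed. At the median member the 95% interval spanned 0.28 log2 (1.22-fold) on each side. In round spermatids it lay within 1.5-fold of wild type for 26 of 30 members, the others being Uba6, Ube2dnl2, Ube2s and Ube2t. In condensing spermatids it did for 27, the others being Ube2j1, Ube2s and Ube2t. Some of the members within the limit lay near background, where the interval describes the probe signal and does not bound the transcript. These were, in round spermatids, Ube2l6 (detected on 0 arrays in RS_wt and 0 in RS_mut), Uba7 (1 and 0) and Ube2ql1 (2 and 1). They were, in condensing spermatids, Uba7, Ube2ql1 and Ube2z, each detected on 3 arrays in CS_wt and 2 in CS_mut. For Ube2b in round spermatids the knockdown level was bounded at 82.0% to 114% of wild type, and at 88.2% to 123% in the condensing stage. For Ube2g2, with the largest stage change, the bounds were 79.3% to 142% and 78.1% to 140%.

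**Figure D5:**
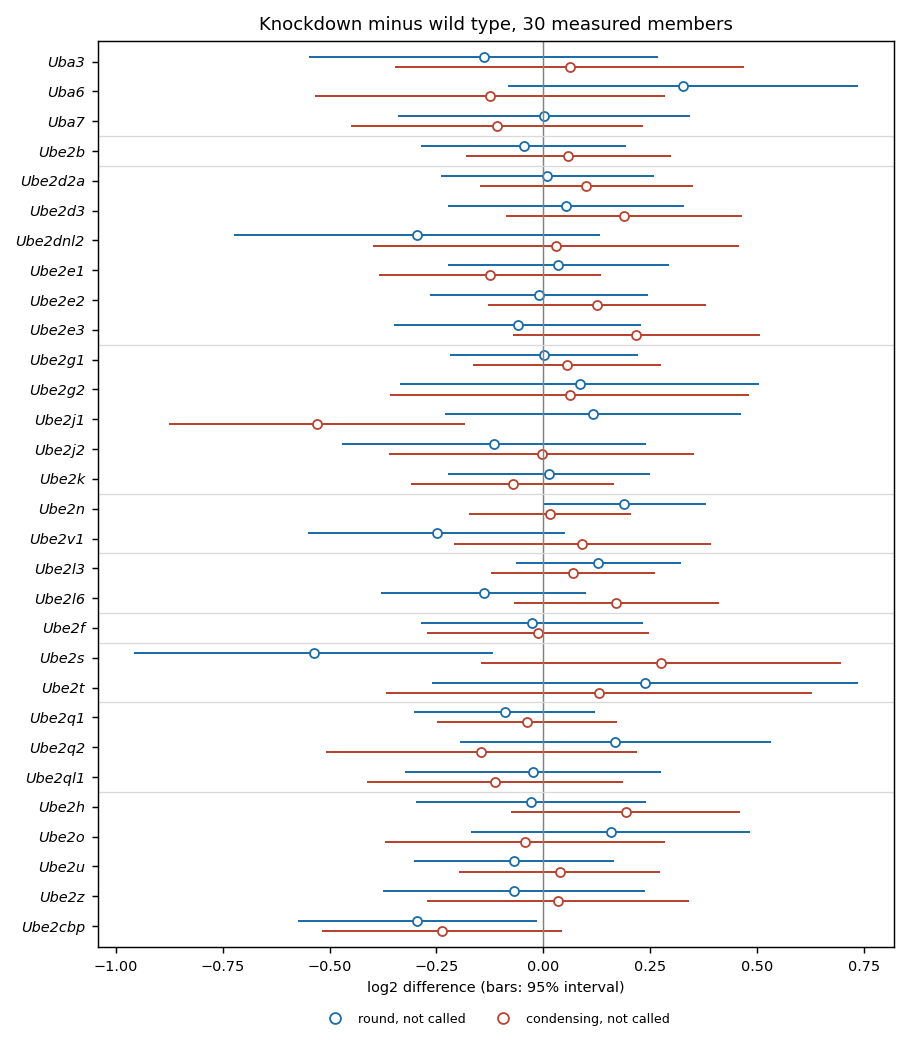
Log2 difference between knockdown and wild type (horizontal axis; positive is higher in the knockdown) for the 30 measured members in round (blue) and condensing (red) spermatids, with 95% intervals; open points did not pass the limma test. No member passed, and the intervals of Ube2s in round (-0.54) and Ube2j1 in condensing spermatids (-0.53) lie farthest below 0.

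Around these enzymes, the ligases and carriers of the pathway moved in both directions between the wild-type stages, where 30.3% of all genes rose and 33.8% fell. Of 9 measured carriers and activating enzymes outside the symbol rule, 2 rose and 1 fell: Cdc34, the founding conjugating enzyme of cullin ligases, rose by 1.06, Nae1, the partner of Uba3, by 0.58, and Atg7, the activating enzyme of autophagy, was at -0.72. Of 10 ligases that work with Rad6 enzymes or in lysine 63 signalling, 5 fell and 1 rose (median -0.37, against -0.03 for all genes). Among them Rnf40, which directs Rad6 enzymes to histone H2B, was at -0.95 and Rnf168, a ligase of the DNA damage response, at -0.80, while Traf6 rose by 0.43. Of 19 HECT ligases 9 fell and 3 rose (median -0.27), with Arel1 at -0.85 and Herc2 at -0.84, and with Wwp2 at 1.08 and Smurf1 at 0.50. Of 11 RBR ligases 3 fell and 2 rose (median -0.13). Rnf144a, with 2.37, had a larger stage difference than any Ube2 or Uba member, and Rbck1 rose by 0.78, while Arih1 was at -0.88 and Arih2 at -0.56. The anaphase promoting complex had 5 rises and 5 falls among 13 (Anapc5 1.07 and Anapc13 0.96, and Cdc20 at -0.92 and Fzr1 at -0.80). Cullin ligase cores had 2 rises and 2 falls among 12 (Rbx1 0.67, Ddb1 -0.68), and precursors of ubiquitin and its relatives 1 rise and 1 fall among 5 (Sumo2 0.61, Sumo3 -0.47). Chain elongation factors had 0 calls among 2. In the knockdown contrasts of both stages each of these lists had 0 members called.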

How the data were processed

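Total RNA was hybridised as biotin-labelled cRNA, per the labels' protocols. The deposited non-normalized table gives for each array, per the file headers, an averaged bead intensity of every probe (linear scale) and its detection p-value. The authors also deposited a table of quantile-normalized intensity values, used as an alternative. The sources used here name neither the scanner software nor the authors' test.

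Intensities were background-corrected by normexp from the detection p-values, given an offset of 16, brought to common quantiles and log2-transformed, as in neqc of limma 3.58.1 (R 4.3.3). Probes detected (p under 0.05) on at least 6 arrays were kept (19086), and the probe with the highest mean stood for a gene. Of the kept probes, 3143 had no symbol and 10 several, and these were left out. Symbols came from the platform annotation, and all 37 members were matched to RefSeq by gene ID. The limma model held 4 group means and 5 contrasts, fitted on all 10759 genes, with two-sided moderated tests and Benjamini-Hochberg adjustment over all of them. Errors are standard errors with log2 differences. The number of arrays limits the precision. In simulated data of 10759 genes, 100 genes were changed by 0.5 log2 and 100 by 1 log2 in the wild-type stage contrast. Of these, 60% and 97% were recovered, with 8 false calls. Far more genes were called in the real stage contrasts, where the adjustment acts differently, so these rates need not apply there.

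Members, roles and lists were chosen with earlier results of these data known. The text names all measured Uba members, Ube2a, Ube2b and Ube2j1, the 8 largest called rises and falls per stage contrast, the 3 smallest p where a knockdown contrast had no call, other probes of a member, and up to 2 called genes per direction in each pathway list. Other members are named with their call. Alternatives were median scaling, no background correction, an offset of 50, other filters, the mean of a gene's probes, the authors' table, fits on a contrast's own groups, array weights, consecutive arrays as a random block, and omissions of arrays.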

Additional observations from a re-analysis of the deposited data

Results flagged for a closer look

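Among 120 groups of 6 arrays of a member, 7 held an array that lay far from the others (a gap to the next array above Dixon's critical share of the group's range), and chance alone gives about 1 in 20 groups. In RS_wt, replicate 3 was the highest for Uba7, at 5.284 against 4.726 for the next array, and for Ube2o, at 11.93 against 11.34. The same array was the lowest for Ube2j2, at 5.818 against 6.563. Ube2o was also highest on CS_wt replicate 13, at 10.87 against 10.5. Ube2l3 was lowest on RS_mut replicate 11, at 8.402 against 8.653. In CS_mut, replicate 22 was the lowest for Ube2cbp, at 5.28 against 5.696, and replicate 21 the highest for Ube2e1, at 5.644 against 5.279. RS_wt3 is an array that stands apart from its group as a whole, and Ube2o, which lay high there, fell under all 12 other settings, including the setting without that array. The causes were not tested.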

How the results depend on the processing

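The counts of called members in both knockdown contrasts and in their difference were 0 under every alternative that was run. Stage counts moved most with scaling to the median of all probes, which gave 6 rises in wild type, and 6 rises and 11 falls in the knockdown. The same scaling reversed the sign in wild type of Uba3 (-0.0856), Ube2d2a (-0.34), Ube2d3 (-0.0958), Ube2e3 (-0.29) and Ube2f (-0.35, adjusted p = 0.0374), and in the knockdown of Uba6 (-0.21), Ube2d2a (-0.12), Ube2e1 (-0.0917), Ube2f (-0.26) and Ube2s (-0.0128). Scaling to the median of detected probes, added after seeing the data, reversed Ube2j1 in the knockdown (0.105). The mean of a gene's probes put Ube2f at -0.32 in wild type and -0.33 in the knockdown (adjusted p = 0.00989 and 0.00857). Array weights reversed Ube2f in wild type (-0.0109) and Ube2e1 (-0.0184) and Ube2j1 (0.0117) in the knockdown. Without the 3 arrays that stand apart, Ube2f was at -0.0244 in wild type, and Ube2e1 (-0.0466), Ube2f (-0.0265) and Ube2h (0.00999) were reversed in the knockdown. Apart from the scaling and probe choices, whose construction sets the value, the cause was not tested. Leaving out an array at a time gave 10 to 13 rises and 8 to 11 falls in wild type, and 10 to 12 rises and 6 to 8 falls in the knockdown. These omissions moved Uba3 from -0.0352 to 0.22 and Ube2f from -0.93 to 0.17 in wild type, and Ube2f from -0.84 to 0.15 and Ube2e1 from -0.0443 to 0.0695 in the knockdown, where for Ube2f another probe became the brightest. No paired analysis was possible because the groups share no replicate numbers. With consecutive arrays as a random block, which the labels do not establish, the correlation was 0.148, and 12 members rose and 8 fell in wild type. Dim probes limit Uba3, Uba7, Ube2l6, Ube2ql1, Ube2j1 and Ube2z, which lay near background in at least 1 group, and the number of arrays limits the precision of all values.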
